A study of Mus musculus with 2 samples.

Results

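The Mir99, Mir100 and Mir125 genes are a small group of mouse microRNA genes that share loci with let-7 genes and are known from blood stem cells. The 6 genes (Mir99a, Mir99b, Mir100, Mir125a, Mir125b-1 and Mir125b-2) were chosen by symbol, through the Ensembl identifiers of the count files, from 1973 counted microRNA genes, and all 6 were found. RNA under the 30-nucleotide size limit named by the labels was sequenced as microRNA-seq from livers of B6NCrl embryos at embryonic day 11.5; the labels name no treatment or altered allele. The 2 libraries, biological replicates 1 and 2, form 1 group: each is a pool of male and female embryos, 109 embryos in replicate 1 and a number not stated for replicate 2. No contrast of conditions exists, so the data answer which of these microRNAs the early liver holds, at what level, and how far the pools differ.

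A microRNA is cut from a hairpin precursor and loaded as a short strand, the mature RNA, that pairs with messenger RNAs mainly through its seed. Genes of the miR-99/100 and miR-125 groups sit beside let-7 genes in clusters that are conserved across animals, and each cluster can be transcribed as 1 long primary RNA. Maturation of let-7 is held back by Lin28 proteins in early embryos, a block that does not act on the neighbouring microRNAs in the same way. miR-125a and miR-125b are known to expand blood stem cells when raised, and the liver at this stage is a site of blood formation.

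The mature 5′ strands show which members are alike and which can be counted apart. They are printed 5′ to 3′ from RefSeq (GRCm38.p6, the assembly also called mm10), plus strand, with the seed (bases 2 to 8) in capitals.
Mir99a, miR-99a-5p, chr16:77598940-77598961: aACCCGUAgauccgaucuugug
Mir100, miR-100-5p, chr9:41531437-41531458: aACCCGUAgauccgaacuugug
Mir99b, miR-99b-5p, chr17:17830194-17830215: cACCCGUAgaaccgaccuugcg
Mir125a, miR-125a-5p, chr17:17830817-17830840: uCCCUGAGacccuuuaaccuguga
Mir125b-1, miR-125b-5p, chr9:41581940-41581961: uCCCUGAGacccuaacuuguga
Mir125b-2, miR-125b-5p, chr16:77646279-77646300: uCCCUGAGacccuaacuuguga

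The 6 members carried 2 seeds. Mir99a, Mir99b and Mir100 shared ACCCGUA, and the Mir125 genes shared CCCUGAG. Counting positions from 1 at the 5′ end, miR-99a-5p and miR-100-5p differed by 1 base, U16A. miR-99a-5p and miR-99b-5p differed by 4 bases (A1C, U11A, U16C and U21C), none of them in the seed. miR-125b-5p and miR-125a-5p were identical over their first 13 bases. The 5′ strand of Mir125b-1 and Mir125b-2 was the same sequence in both genes, and their precursors, as GENCODE M21 gives them, shared a run of 24 bases. A read of that strand fits both genes equally well, and reads that map to several places were not given to a gene.

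What sets the Mir125b genes apart is their 3′ strands, shown for that reason with bases 2 to 8 in capitals.
Mir125b-1, miR-125b-1-3p, chr9:41581980-41582001: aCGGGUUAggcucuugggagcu
Mir125b-2, miR-125b-2-3p, chr16:77646318-77646339: aCAAGUCAgguucuugggaccu
They differed by 5 bases (G3A, G4A, U7C, C11U and G20C), and each occurred in 1 counted precursor. The files count reads per gene, not per strand of the hairpin, so which strand the counted reads came from is unknown. Among the other 4 members, no precursor shared a run of 20 or more bases with another counted gene. How reads with mismatches were placed is not given in the sources used here. The levels of Mir125b-1 and Mir125b-2 below are therefore uncertain and can be too low.

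The libraries held 3344673 reads (replicate 1) and 1584499 reads (replicate 2) assigned to microRNA genes on the strand of the gene. Levels are counts per 1000000 of these assigned counts (CPM), and means are given ± SD over both libraries. A count of 0 allows up to 0.897 and 1.89 CPM, and intervals cover counting error only. The tissue label was set against microRNAs known from cell types. Of 6 hepatocyte genes 4 were detected (at least 10 counts in both libraries), and the list summed to 3.64 ± 0.235% of assigned counts. Most of that sum was Mir122, at 32583 ± 2693 CPM. The endothelial Mir126a held 6.87 ± 1.60% and the erythroid list 0.984 ± 0.214%, with 3 of 3 genes detected. Of the counted neural genes 0 of 5 were detected, though all 5 share 20 or more bases with another counted gene, and of the striated muscle genes, 2 of which share such a run, 1 of 4 was detected. In whole livers, fewer cells of a type and less RNA per cell cannot be told apart.

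All 6 members were detected, and together they held 5.82 ± 0.558% of the assigned counts (SD, n = 2), 5.42% in replicate 1 and 6.21% in replicate 2. Most of these counts belonged to Mir99a, Mir99b and Mir100. Those 3 genes took 5.19 ± 0.738% of the counts, and the 3 Mir125 genes 0.628 ± 0.180% (SD, n = 2). The ratio of the first sum to the second was 6.18 in replicate 1 (95% exact Clopper-Pearson interval 6.10 to 6.27) and 11.4 in replicate 2 (11.2 to 11.7). This ratio is an upper value as far as reads of miR-125b-5p were lost to the class mapping to several places. That class held 2804637 and 1234115 reads in replicates 1 and 2, and the files do not say which genes they fit.

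Mir99a (ENSMUSG00000065530.1), whose microRNA is known as a restraint on mTOR and IGF signalling, was the highest member. It had 81172 counts or 24269 CPM in replicate 1 and 48918 counts or 30873 CPM in replicate 2, a mean of 27571 ± 4670 CPM (SD, n = 2). It ranked 8 and 6 among all counted genes in replicates 1 and 2. The gene lies at 77598936 to 77599000 on chromosome 16, on the plus strand, in an intron of the long noncoding host Mir99ahg. Mir99a alone gave 44.7% and 49.7% of the counts of the 6 members.

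Mir99b (ENSMUSG00000065396.1) followed with 16818 CPM in replicate 1 and 19261 CPM in replicate 2, a mean of 18040 ± 1727 CPM (SD, n = 2), and ranked 15 in both libraries. It lies at 17830188 to 17830257 on chromosome 17, in an intron of Spaca6, a gene known from sperm and egg fusion. Mir100 (ENSMUSG00000093011.1), which makes nearly the same mature RNA as Mir99a, had 5610 and 6998 CPM, a mean of 6304 ± 982 CPM (SD, n = 2). It lies at 41531425 to 41531504 on chromosome 9, in introns of the noncoding genes 3110039I08Rik and Gm49317. The values of Mir99a stood 4.33-fold above those of Mir100 in replicate 1 and 4.41-fold above them in replicate 2, so the pair kept nearly the same proportion in both pools.

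Mir125a (ENSMUSG00000065479.1), known for its role in the blood stem cell pool, stood at 6481 CPM in replicate 1 and at 3802 in replicate 2, a mean of 5141 ± 1894 CPM (SD, n = 2). Of the 6 members it was the only one with the lower value in replicate 2. It lies at 17830812 to 17830879 on chromosome 17 and overlaps an exon of Spaca6. Mir125b-1 (ENSMUSG00000093354.1) had 762 and 835 CPM, a mean of 798 ± 51.7 CPM (SD, n = 2). It lies at 41581926 to 41582002 on chromosome 9, in introns of 3110039I08Rik and Gm49317 and over an exon of Gm28119. Mir125b-2 (ENSMUSG00000065472.1) had 308 and 363 CPM, a mean of 335 ± 39.1 CPM (SD, n = 2). It lies at 77646273 to 77646343 on chromosome 16, in an intron of Mir99ahg and over an exon of C130023A14Rik. Both Mir125b genes were far below Mir125a, in the counts that could be given to 1 gene.

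**Figure D1:**
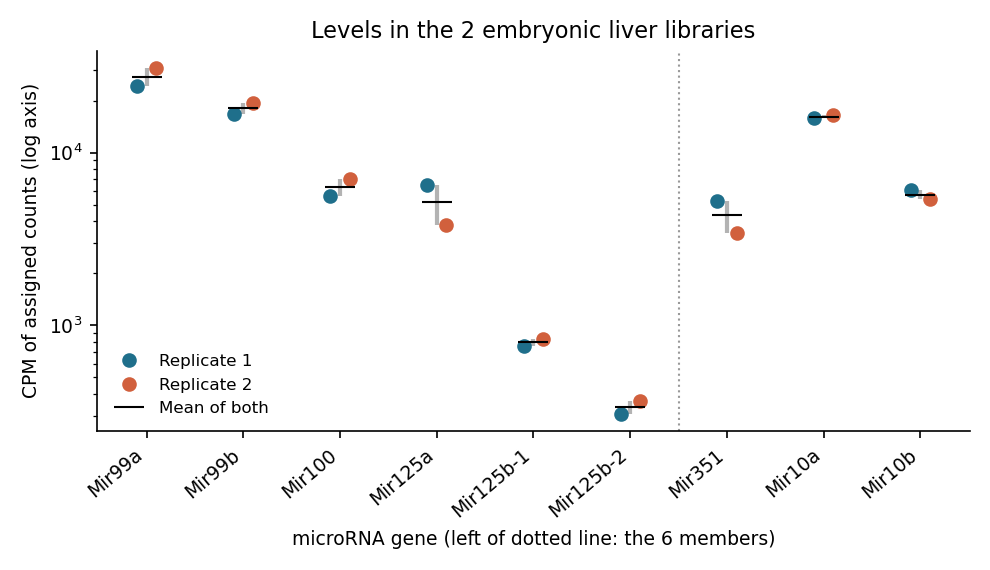
Level of each gene in CPM of assigned counts on a log axis, with 1 point per library (offset sideways), a black dash for the mean and a grey line joining the 2 values. Mir99a is highest and Mir125b-2 lowest of the members on the left, and only Mir125a among them is lower in replicate 2; on the right are Mir351, which has the Mir125 seed, and the related Mir10a and Mir10b.

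Each read is taken as 1 mature RNA, so members were ordered by CPM. Whether different RNAs entered the libraries equally well was not tested, so the order and the folds are those of reads. The order by mean was Mir99a, Mir99b, Mir100, Mir125a, Mir125b-1 and Mir125b-2. Of the 15 pairs of members, 14 were ordered in the sense that their values in the 2 libraries did not overlap. Pairs that include Mir125b-1 or Mir125b-2 are ordered only in counts that can be too low, so the places of these genes are uncertain. The exception was Mir100 against Mir125a: Mir125a was higher in replicate 1 and Mir100 was higher in replicate 2. Dividing by gene length (65 to 80 bases) left the order as it was, with 14 of 15 pairs apart. The highest member stood 78.9-fold above the lowest in replicate 1 and 85.1-fold in replicate 2, a span that rests on the uncertain Mir125b-2.

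The members fell into 3 loci, and in each the genes stood in 1 order along the plus strand: a Mir99 or Mir100 gene first, a let-7 gene second and a Mir125 gene last. The loci on chromosomes 16 and 9 were long. Mir99a and Mir125b-2 enclosed Mirlet7c-1 in 47408 bases, with 656 bases between Mir99a and the let-7 gene and 46522 bases from there to Mir125b-2. Mir100 and Mir125b-1 enclosed Mirlet7a-2 in 50578 bases, with gaps of 5211 and 45114 bases. The chromosome 17 locus was compact, with Mir99b, Mirlet7e and Mir125a inside 692 bases and gaps of 94 and 367 bases.

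Counts did not follow locus membership evenly. With their let-7 genes, the Mir99a locus held 2.79 ± 0.470% and the Mir100 locus 0.723 ± 0.0978% of the assigned counts (SD, n = 2). Mir99b and Mir125a held 2.32 ± 0.0167% (SD, n = 2), a sum with no reads at Mirlet7e, which are given below. The small SD of this sum joins opposite shifts. From replicate 1 to replicate 2, Mir99b went from 16818 to 19261 CPM and Mir125a from 6481 to 3802 CPM. In all 3 loci and both libraries the first gene had more counts than the last. At the chromosome 17 locus, where neither end shares 20 or more bases with another counted gene, the ratio of Mir99b to Mir125a was 2.59 in replicate 1 (95% exact interval 2.55 to 2.64) and 5.07 in replicate 2 (4.93 to 5.21). These intervals did not overlap, and the ratio does not depend on library scaling. The same ratio was 7.36 (7.06 to 7.68) and 8.38 (7.92 to 8.88) for Mir100 to Mir125b-1. For Mir99a to Mir125b-2 it was 78.9 (74.2 to 84.0) and 85.1 (78.4 to 92.5). The latter 2 ratios are upper values in the same sense as above.

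The let-7 genes of the loci had few counted reads. Mirlet7c-1 had 174 and 55 counts, or 52.0 and 34.7 CPM, and Mirlet7a-2 had 568 and 144 counts, or 170 and 90.9 CPM, in replicates 1 and 2. Both precursors share 20 or more bases with other let-7 genes, so these counts can be too low and a shortage of let-7 is not shown by them. At the place of Mirlet7e the counted gene was Gm25927, which lies on the minus strand at 17830343 to 17830459, and it had 0 counts on its own strand. Reads there fell on the opposite strand, that of Mirlet7e: 12171 in replicate 1 and 5039 in replicate 2. As a share of counts made on either strand this is 3316 and 2876 CPM, a mean of 3096 ± 312 CPM (SD, n = 2). If those reads are let-7e, the count of Mir99b was 4.62 times that of let-7e in replicate 1 (95% exact interval 4.53 to 4.71) and 6.06 times in replicate 2 (5.88 to 6.24). The 6 members themselves had 0 reads on the opposite strand in both libraries.

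**Figure D2:**
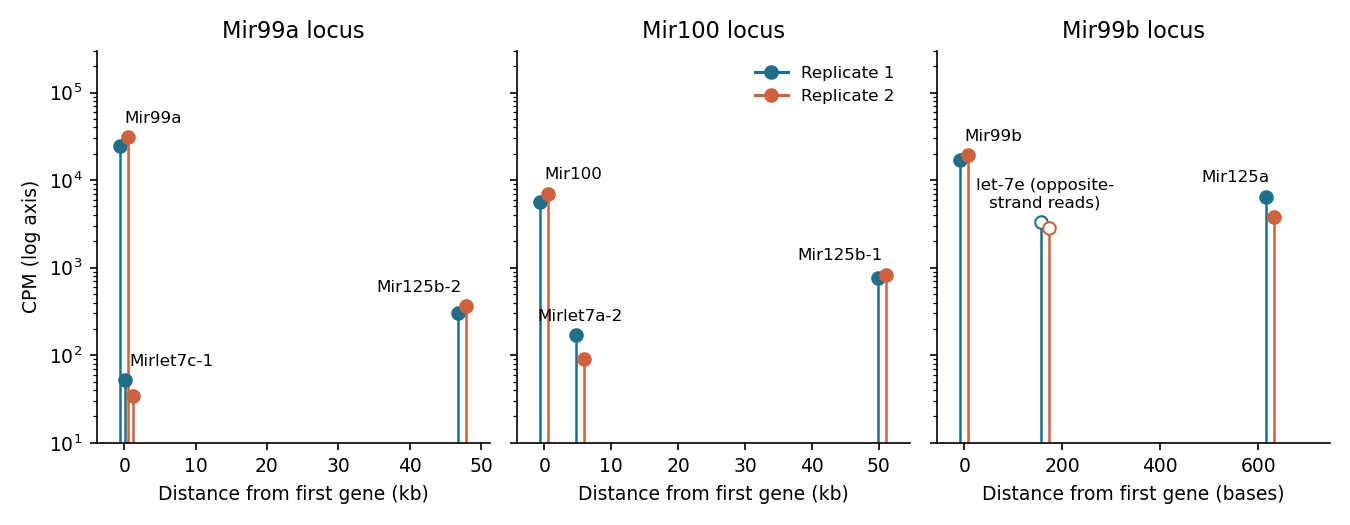
CPM on a log axis against the distance of each gene from the start of the first gene of its locus (kb in the first and second panels, bases in the third), 1 stem per library, offset sideways. The first gene is above the last in each locus; open points are the reads opposite to Gm25927, at 3316 and 2876 CPM of the counts made on either strand.

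Outside the members, 3 counted genes in the RefSeq table carry a member seed, all of them that of Mir125. Mir351 is a rodent gene of the X chromosome next to Mir322 and Mir503. It is shown because its counted level lay near that of Mir125a.
Mir351, miR-351-5p, chrX:53053315-53053338, minus strand: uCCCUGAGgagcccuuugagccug
Its 5′ strand was the same as that of miR-125a-5p and miR-125b-5p over the first 8 bases and differed from miR-125a-5p at 14 of 24 positions. Mir351 stood at 5240 CPM in replicate 1 and at 3407 in replicate 2, a mean of 4324 ± 1296 CPM (SD, n = 2). Its range overlapped that of Mir125a, so the rule used for pairs of members left these genes unordered. Within each library Mir125a was above Mir351, at 6481 CPM in replicate 1 and 3802 in replicate 2. The genes Mir125a, Mir125b-1, Mir125b-2 and Mir351 together, counted over both strands of their hairpins, took 1.28% of the counts in replicate 1 and 0.841% in replicate 2. Mir6367 and Mir6394, which carry the seed too, had 0 counts in both libraries.

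The Mir10 genes of the Hox clusters are the relatives of the miR-99/100 group by sequence, with an offset that changes the seed to ACCCUGU.
Mir10a, miR-10a-5p, chr11:96317186-96317208, plus strand: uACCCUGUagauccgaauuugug
Mir10b, miR-10b-5p, chr2:74726074-74726096, plus strand: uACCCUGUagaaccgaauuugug
miR-100-5p and miR-10a-5p shared a run of 11 bases, which starts at base 6 of the first and base 7 of the second. Mir10a averaged 16146 ± 419 CPM and Mir10b 5716 ± 464 CPM (SD, n = 2). Mir10a lay below Mir99b in both libraries, with ranges that did not overlap, while the range of Mir10b overlapped that of Mir100 and of Mir125a.

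To see how far the pools differed, each gene's reads were split by library and set against the proportion of the library sizes, scaled with edgeR's trimmed mean of M values (TMM), in an exact binomial test (two-sided). P-values were adjusted by Benjamini-Hochberg over 454 genes. Calls needed an adjusted p below 0.05 together with a change of 2-fold or more. The test knows counting noise only and compares these libraries, not conditions. By this rule 0 of 6 members were called, against 7.27% of all genes tested (33 of 454). Without the fold threshold all 6 passed, against 49.1% of all genes tested, and the highest adjusted p among them was 0.000234 (exact binomial test). At a threshold of 1.5-fold 1 of 6 passed, Mir125a, against 21.1% of all genes tested. With edgeR's exact test at an assumed biological coefficient of variation of 0.2, 0 of 6 members were called, against 0.220% of all genes tested (1 of 454), and the lowest adjusted p among the members was 0.535. The common coefficient of variation that edgeR estimated from both libraries was 0.260, above the assumed value.

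On the log2 scale of replicate 2 over replicate 1, Mir99a stood at 0.41 (95% exact interval 0.39 to 0.43), Mir100 at 0.38 (0.35 to 0.41) and Mir99b at 0.26 (0.24 to 0.28). Mir125b-2 stood at 0.30 (0.15 to 0.45) and Mir125b-1 at 0.19 (0.10 to 0.29). All 5 passed the test with no fold threshold and were higher in replicate 2, as 26.0% of all genes tested did. By sign alone, 232 of 454 genes tested had a log2 ratio above 0 and 222 below 0. Mir125a stood at -0.71 (-0.75 to -0.67), which is 1.63-fold higher in replicate 1. It passed the same test, and 23.1% of all genes tested passed it with the higher value in replicate 1. The median of the 6 members was 0.28 and that of all genes tested 0.01. Of 257 genes whose mean count was 100 or more, 50 (19.5%) had an absolute log2 ratio at least as large as that of Mir125a and 109 (42.4%) at least as large as that of Mir99a. Relative to the mean, the SD over both libraries was 36.8% for Mir125a and 6.48% to 16.9% for the other 5 members.

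Mir351, with the Mir125 seed, was lower in replicate 2 like Mir125a, at -0.56 (-0.60 to -0.52), while the counts of both Mir125b genes were higher. Reads of miR-125b-5p, the strand with the seed, fit both Mir125b genes. Their counts therefore need not follow the RNA with that seed. Of 257 genes whose mean count was 100 or more, 78 (30.4%) had an absolute log2 ratio at least as large as that of Mir351. Mir10a and Mir10b were nearly level at 0.11 and -0.10. The cell type lists differed between the libraries too: in replicates 1 and 2 the endothelial Mir126a had 5.74% and 8.01% of the counts, the erythroid list 0.833% and 1.14%, the hepatocyte list 3.48% and 3.81%, and the leukocyte list 1.04% and 0.813%. The hepatocyte sum was mostly Mir122, at 30679 and 34487 CPM in replicates 1 and 2. Of the 6 tested genes of that list 2 had a log2 ratio above 0 and 4 below 0. Of the 3 erythroid genes 2 were above 0 and 1 below 0. By the rule of adjusted p and 2-fold, 1 erythroid gene was called, higher in replicate 2, and 1 hepatocyte gene, higher in replicate 1. The share over all genes tested was 7.27%. In the leukocyte list 4 of 5 counted genes were detected and 3 of 4 tested genes had a log2 ratio below 0. This list leaves out 140377 and 62714 reads on the strand opposite to its gene Mir142b, a locus known from blood cells. The part of these shifts in the values of the members was not tested.

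**Figure D3:**
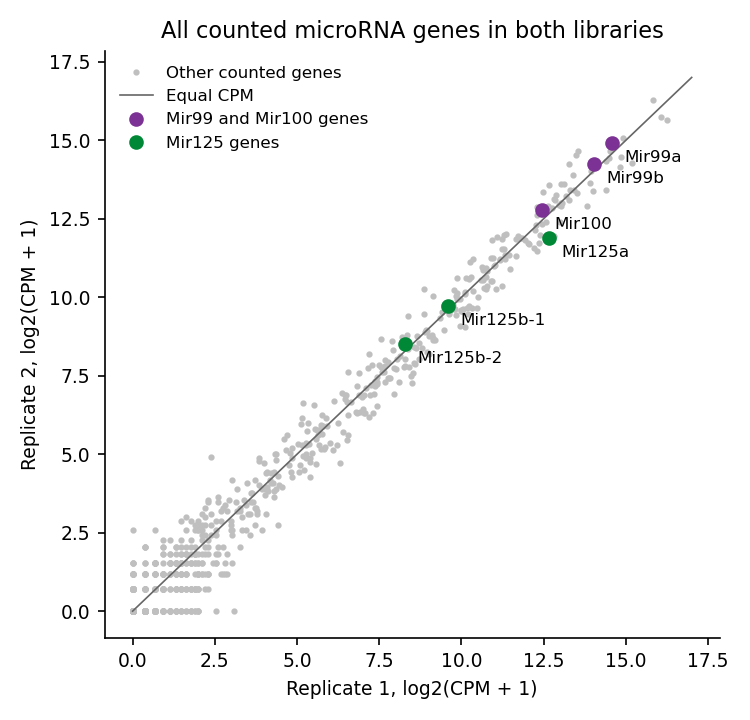
Each point is 1 of the 1973 counted genes, with log2(CPM + 1) in replicate 1 across and in replicate 2 up, and the line marks equal CPM. The Mir99 and Mir100 genes and both Mir125b genes lie just above the line and Mir125a lies below it.

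**Figure D4:**
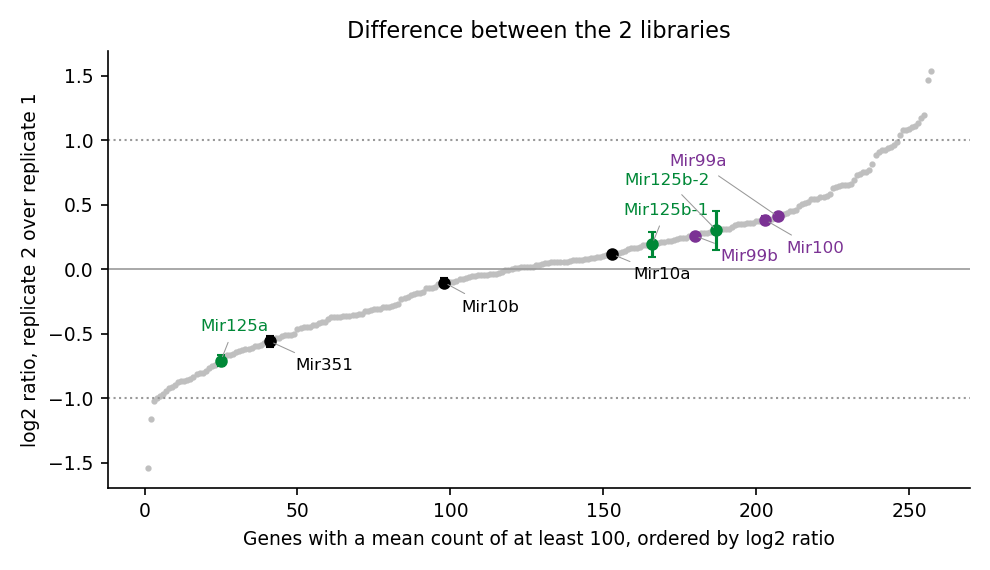
Log2 ratio of replicate 2 over replicate 1, scaled by TMM, for the 257 genes whose mean count was 100 or more in order of that ratio; bars are 95% exact intervals of counting error and dotted lines mark 2-fold. Mir125a at -0.71 and Mir351 at -0.56 lie left of the middle, the 5 other members between 0.19 and 0.41 lie right of it, and all stay inside 2-fold.

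Among other microRNAs known from blood stem and progenitor cells, 12 of 14 symbols were counted genes and all 12 were detected. They held 10.4% of the counts in replicate 1 and 12.7% in replicate 2, of which Mir126a alone held 5.74% and 8.01%. The most abundant were Mir126a, which keeps blood stem cells quiescent and is also the main endothelial microRNA, at 68747 ± 15986 CPM, Mir130a at 24623 ± 1957 CPM and Mir22 at 7005 ± 960 CPM (SD, n = 2). By the rule of adjusted p and 2-fold 0 of 12 were called between the pools, against 7.27% of all genes tested. Their median log2 ratio was 0.07, from -0.87 to 0.54, with 7 of 12 above 0. Mir99a lay above Mir22 in both libraries, and its range of 24269 to 30873 CPM overlapped that of Mir130a, from 23239 to 26007 CPM. Within each library Mir99a was above Mir130a.

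The genes nearest to each member in level were found by the distance of log2(CPM + 1) over the 2 libraries. With 2 points this is likeness of level only. Nearest to Mir99a were Mir322 (distance 0.11) and Mir130a (0.26), to Mir99b Mir487b (0.02) and Mir10a (0.24), and to Mir100 Mir296 (0.18) and Mir151 (0.21). Nearest to Mir125a were Mir30d (0.16), with 7209 and 3955 CPM in replicates 1 and 2, and Mir324 (0.28). For Mir125b-1 they were Mir6236 (0.06) and Mir203 (0.11), and for Mir125b-2 Mir363 (0.12) and Mir450b (0.14).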

How the data were processed

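The deposited files held whole-number read counts per microRNA gene, in 3 columns (either strand, strand of the gene, opposite strand), one file per library. Alignment to mm10 and counting on GENCODE M4 are per the file headers that the authors deposited beside the counts; the aligner, the counter and any trimming are not given in the sources used here. Rows that name no gene (unmapped, several places, no feature, ambiguous) made up 73.8% and 71.0% of the reads of replicates 1 and 2 and stayed out of library sizes and tests. Symbols and coordinates came from GENCODE M21 on the same assembly, by Ensembl identifier without its version, for 1894 of 1973 genes. Mature sequences were matched by symbol in RefSeq, for 6 of 6 members. Runs shared between precursors were sought in the GENCODE M21 transcripts of counted genes, not in the whole genome.

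CPM were computed from the column of the strand of the gene. With 1 group and 2 libraries edgeR's quasi-likelihood test cannot be used, so libraries were compared by exact binomial tests on genes with at least 10 summed counts, adding 0.5 to each count for log2 ratios. The procedure was tested on simulated data. edgeR 4.0.16, DESeq2 1.42.0, R 4.3.3, Python 3.11.15, numpy 2.4.6, pandas 2.3.3 and scipy 1.17.1 were used. Members and lists were chosen with earlier results of these data known. Named genes were all members, the let-7 genes of their loci, genes sharing a member seed, Mir10a and Mir10b, the 2 nearest genes in level per member and the 3 most abundant blood stem cell microRNAs. Mir122, Mir142b and the let-7 genes outside the loci belong to the lists but were named after their values were seen. Alternatives covered the count column, scaling, length, filters, folds, the test and each library left out.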

Additional observations from a re-analysis of the deposited data

Results flagged for a closer look

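Reads on the strand opposite to Gm25927, a column outside the main measurement, numbered 12171 in replicate 1 and 5039 in replicate 2, while a count of 0 allows up to 3. They lie between Mir99b and Mir125a at the place of Mirlet7e (17830352 to 17830444 on chromosome 17, plus strand), which is not among the counted genes by name. The mature RNA annotated there is printed to show how it differs from the let-7 RNA of the chromosome 16 locus, with the seed in capitals.
let-7e-5p, chr17:17830366-17830387: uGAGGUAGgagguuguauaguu
let-7c-5p at Mirlet7c-1, chr16:77599672-77599693: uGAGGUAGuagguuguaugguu
Neither strand of let-7e occurs in a counted precursor in the sense direction, while let-7c-5p occurs in 2.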

How the results depend on the processing

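Of 73 values under alternatives, 66 stayed within the spread or on their side of the threshold and 7 moved. With 2 libraries, leaving out a library always shifts a mean by less than the SD. The values with a library left out therefore stayed by arithmetic and are no test of stability. Counting reads on either strand enlarged the denominator, and the CPM of all 6 members fell, that of Mir99a to 25015 in place of 27571. Among them only Mir125b-1, at 725 CPM in place of 798, fell by more than its SD of 51.7. The Mir99b locus rose to 2.41% in place of 2.32%, since the reads opposite to Gm25927 joined it. Taking all reads as denominator gave the members 1.61% in place of 5.82%. With no fold threshold 6 members were called, against 49.1% of all genes tested, and with a 1.5-fold threshold 1, Mir125a, against 21.1%. Over all genes, 15 were called from 100 summed counts and 1 by edgeR's exact test at an assumed coefficient of variation of 0.2, in place of 33. Scaling by total assigned counts gave 19 genes higher in replicate 2 and 15 higher in replicate 1, in place of 22 and 11. It kept the direction of all 6 members. Leaving out a library moved the share of the members between 5.42% and 6.21%. Ratios between libraries have no value with 1 library. No paired analysis was possible because the labels form a single group. Reads carry no molecular identifiers that the sources describe.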

Other observations

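The let-7 genes outside the loci of the members covered a wide span of counted levels. Mirlet7g averaged 21060 ± 696 CPM and Mirlet7i 9422 ± 93.0 CPM (SD, n = 2), and neither shares 20 or more bases with another counted gene. Mir98, which carries a let-7 sequence, averaged 1739 ± 191 CPM and Mirlet7d 2334 ± 49.3 CPM. Mirlet7a-1 and Mirlet7c-2, which do share 20 or more bases with other let-7 genes, averaged 106 ± 38.1 CPM and 6.28 ± 0.846 CPM (SD, n = 2). Of 10 counted let-7 genes 4 share such a run, among them Mirlet7c-1 and Mirlet7a-2 beside Mir99a and Mir100, and these 4 had the lowest means but for Mirlet7b, at 103 ± 36.2 CPM with no such run.

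The 3′ strands of Mir99a and Mir99b also share bases 2 to 8, which are not those of the 3′ strand of Mir100. They are printed to show this, with these bases in capitals.
miR-99a-3p, chr16:77598977-77598997: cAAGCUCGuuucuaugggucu
miR-99b-3p, chr17:17830232-17830253: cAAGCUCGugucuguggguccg
miR-100-3p, chr9:41531471-41531492: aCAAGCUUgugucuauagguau
The counts do not separate the strands of a hairpin, so no level of these 3′ strands was measured.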
